A study of Mus musculus with 2 samples.

Results

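The potassium channel genes described here are the gene symbols beginning with Kcn that reached at least 200 unique molecular identifiers (UMIs, each counting 1 captured RNA molecule) over both sections together. They were selected on this total alone, and 1 symbol with that beginning was set aside by the rule. Of 99 such genes among the 32285 genes of the count matrices, 70 qualified and 28 fell below the minimum, 5 of them with no UMI at all. The members just inside were Kcna1 with 222 UMIs, Kcne4 with 222 and Kcnj14 with 226, and the genes just outside were Kcnmb1 with 177, Kcnd3os with 144 and Kcnj5 with 126. Member totals ran from 222 to 14316 UMIs with a median of 1861.5, and 44 members had at least 1000.

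Spatial transcriptomes came from 2 coronal brain sections through the dorsal hippocampus of both hemispheres, 1 section from each of 2 adult male mice of genotype ArcCreERT2::eYFPflx, in which the Arc promoter drives a tamoxifen-dependent Cre recombinase and Cre switches on a fluorescent reporter. The mouse labelled trained had learned active place avoidance, in which the turning of an arena brings the mouse toward an unmarked zone with a mild foot shock unless it moves away, and the mouse labelled untrained had been in the same arena with the shock off. Both brains were taken after a retention test without shock. Visium slides carry a grid of barcoded spots, and each spot reads the RNA of the several cells above it. The sections are named by their deposited labels throughout, and each direction holds for the labels as they stand. Egr1, a gene induced by neuronal activity, had a UMI in 259 of 655 hippocampal spots (median 4352 UMIs per spot) of the section labelled trained and in 389 of 623 (median 14572) of the section labelled untrained. Arc was seen in 209 and 351 of these spots and Jun in 189 and 315. The section with more such spots is also the more deeply counted, and whether the labels were exchanged was not settled here. With 1 section per group (n = 1 against n = 1), no difference between the labels has a replicate check, and animal, section and library cannot be told apart from training. Intervals of ratios are exact 95% intervals that cover counting error only.

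Potassium channels let potassium leave or enter cells along its gradient and so set the resting potential, shape the action potential and limit repetitive firing. Voltage-gated Kv channels assemble from 4 pore-forming subunits, often together with silent subunits that form no channel alone and with cytoplasmic or membrane-spanning auxiliary proteins. Other families are opened by calcium, pass current more easily inward, or carry a steady leak. In the hippocampus, A-type current of the Kv4 family in dendrites and M-current of the Kv7 family near the axon are known brakes on excitability.

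All pore-forming subunits share the selectivity filter, the short stretch that lines the narrowest part of the pore, and the auxiliary subunits lack it. The reading frames of 68 protein-coding members were searched for its signature (a codon for threonine or serine, then valine, isoleucine or leucine, then glycine, then tyrosine, phenylalanine or leucine, then glycine). A match was found in 56 members, of which 7 tandem-pore genes had 2, and in none of the 12 Kv beta, Kv4-interacting, KCNE and BK auxiliary subunits. The remaining 2 members are noncoding RNAs. The windows below, read from the GRCm38 (mm10) genome on the coding strand of 1 exon each, show the pore loop of 8 members of several channel classes whose regional patterns are described afterwards. Capitals mark the 5 filter codons, with 18 bases before and 12 after, and coordinates are those of the window.
Kcna4, chr2:107296477-107296521, plus strand, exon 2 of 2: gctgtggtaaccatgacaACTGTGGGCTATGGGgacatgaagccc
Kcnc2, chr10:112456211-112456255, plus strand, exon 3 of 5: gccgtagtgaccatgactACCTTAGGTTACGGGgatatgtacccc
Kcng1, chr2:168262629-168262673, minus strand, exon 2 of 2: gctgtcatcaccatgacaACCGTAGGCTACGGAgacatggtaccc
Kcnv1, chr15:45109277-45109321, minus strand, exon 3 of 3: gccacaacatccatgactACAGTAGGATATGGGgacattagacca
Kcnh7, chr2:62777331-62777375, minus strand, exon 8 of 16: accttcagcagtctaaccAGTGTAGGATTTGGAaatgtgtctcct
Kcnma1, chr14:23528401-23528445, minus strand, exon 8 of 31: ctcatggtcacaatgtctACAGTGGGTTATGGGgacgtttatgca
Kcnn3, chr3:89645494-89645538, plus strand, exon 4 of 8: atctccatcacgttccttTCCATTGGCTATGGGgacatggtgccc
Kcnk9, filter 2 of 2, chr15:72512707-72512751, minus strand, exon 2 of 2: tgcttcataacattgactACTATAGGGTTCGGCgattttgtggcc
The silent subunits Kcng1 and Kcnv1 carry the signature like the conducting Kv channels. Between classes both the filter codons and the bases around them differ. Visium reads come mostly from the 3′ end of transcripts, so these windows show what kind of channel each gene encodes and were not themselves measured.

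The section labelled trained held 4152 spots and 29515831 UMIs (median 5950.5 per spot), and the section labelled untrained held 3738 spots and 59029131 UMIs (median 13766.5). The libraries share 3448 spot barcodes because the slides use the same barcode list. Members made up 0.256% of all UMIs in the section labelled trained and 0.237% in the section labelled untrained. Joint clustering of spots without any Kcn gene gave 22 clusters, which were named from marker genes where the markers allowed and are otherwise given by number with their leading genes. Regions with at least 30 spots in both sections numbered 17. The hippocampal neuropil region, as clustered, also took in spots below the hippocampus, 62 of 227 in the section labelled trained and 70 of 136 in the other. Levels are counts per 1000000 UMIs (CPM) of pooled spots, and a gene was said to mark a region at 2-fold or more over all other spots of the section with at least 20 UMIs in the region. In spots, fewer cells of a type and less RNA per cell cannot be told apart.

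The potassium channel genes were unevenly spread over both sections. Moran's I, the spatial autocorrelation score deposited by the authors, had a median of 0.0583 over members in the section labelled trained against 0.0209 over the 12911 genes with at least 200 UMIs, and of 0.0977 against 0.0335 in the section labelled untrained. Kcnip2, a calcium-binding partner of Kv4 channels, scored highest in the section labelled trained (0.293), and Kcne2, a membrane-spanning auxiliary subunit, scored highest in the other (0.365). In all, 37 of 70 members marked at least 1 and the same region in both sections, beside 22.1% of all genes. In each section taken alone 49 members marked a region, beside 32.9% of all genes in the section labelled trained and 33.9% in the section labelled untrained. A single region was marked in both sections by 26 members, a pair of regions by 9, and 3 regions by 2 members, Kcnh7 and Kcnip2. Depth and threshold set these numbers in part. With every spot thinned to 1000 UMIs, 12 members marked a region in both sections, beside 6.54% of all genes. At 1.5-fold 59 members did, beside 41.2%, and at 3-fold 15, beside 10.9%.

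**Figure D1:**
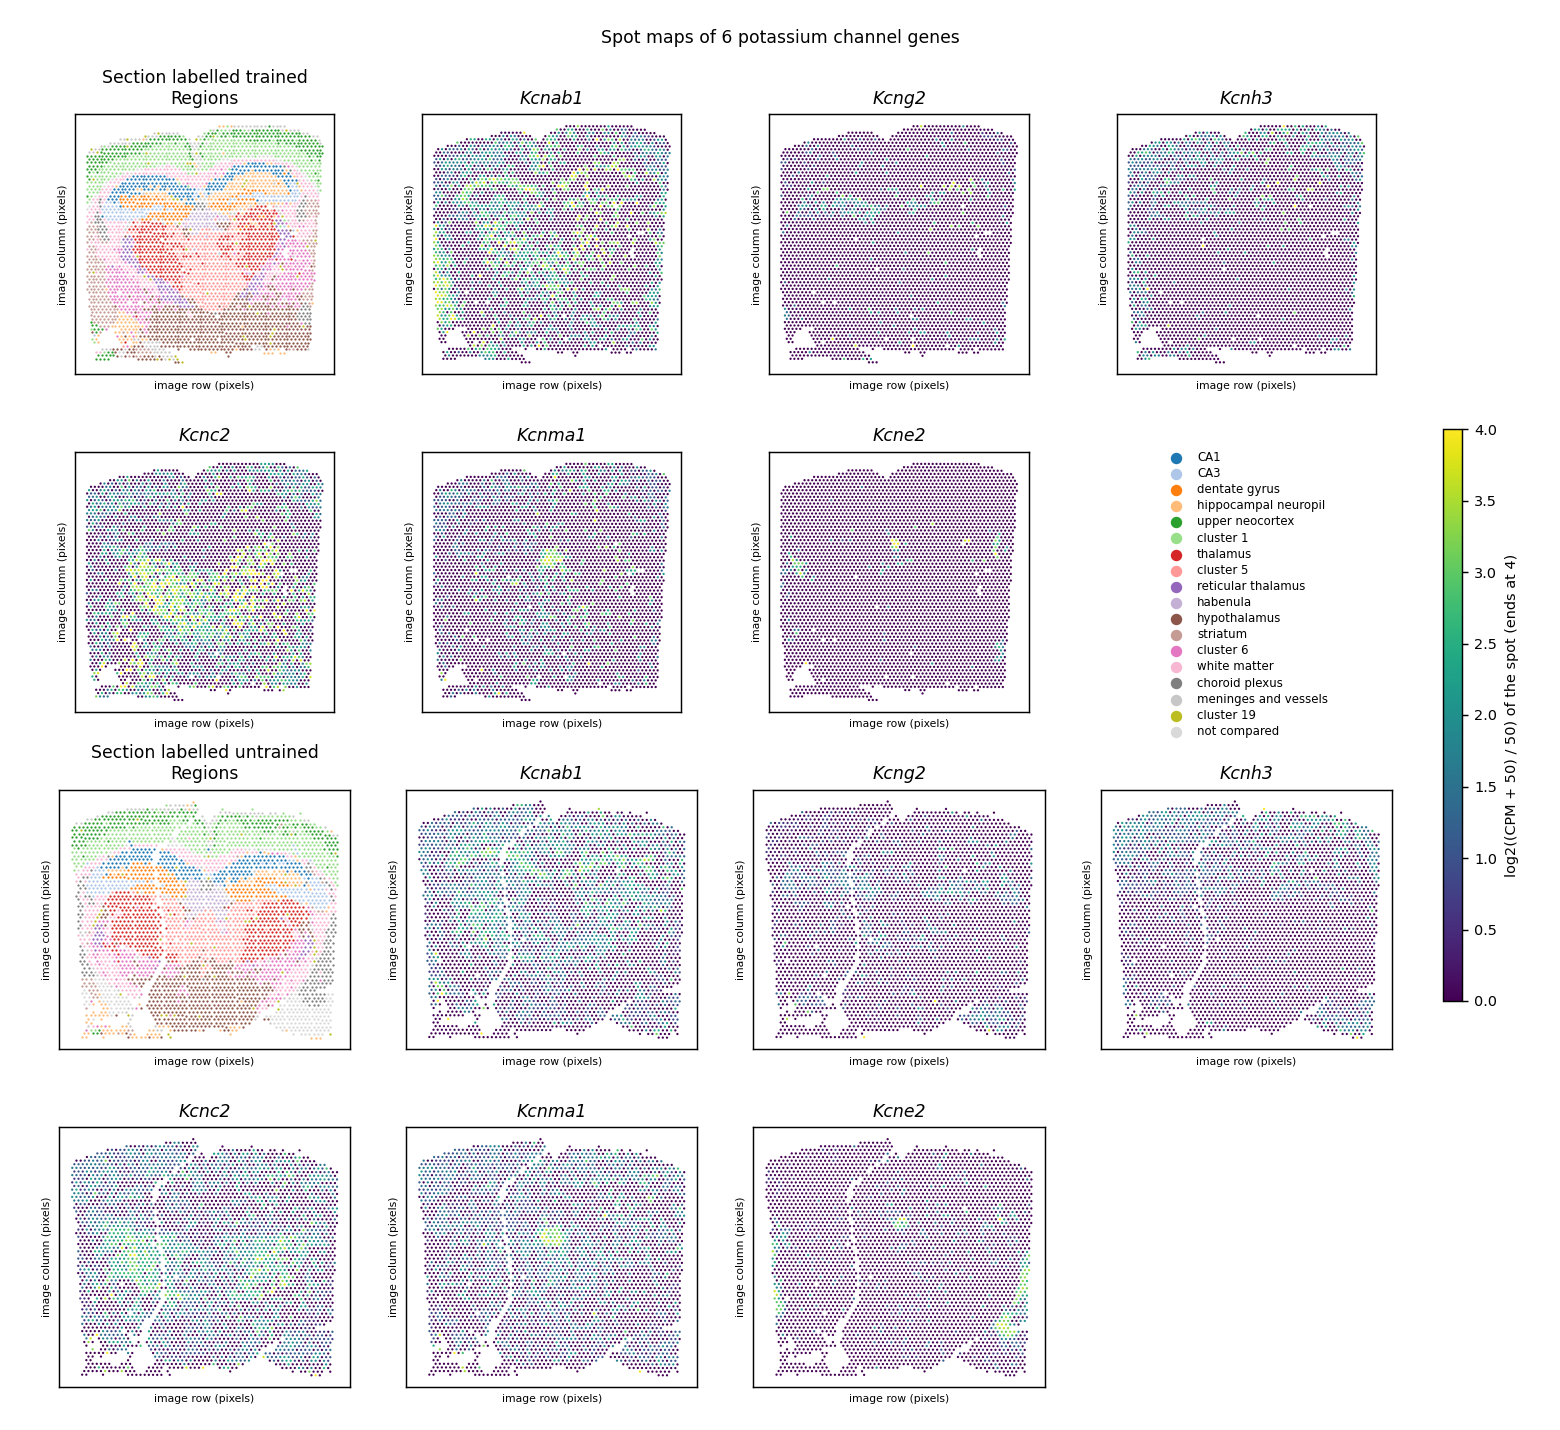
Spots of both sections at their image positions (axes in pixels), first coloured by region and then by the level of 6 genes as log2((CPM + 50) / 50) of each spot, for spots with at least 500 UMIs. Kcnab1 follows CA1, Kcng2 the dentate gyrus and CA3, Kcnh3 the upper neocortex, Kcnc2 the thalamus, Kcnma1 the habenula and Kcne2 the choroid plexus in both sections; single spots hold few UMIs of any of them.

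CA1, the pyramidal field that forms the output of the hippocampal circuit, was marked in both sections by 7 members, beside 2.25% of all genes. The region joined clusters 11 and 20. In cluster 11, with 131 and 140 spots, the neuropil markers scored second (1.15, beside 1.49 for CA1 markers). Ddn of the neuropil list was among its leading genes, so the region may not be the cell layer alone. Kcnab1, a Kv beta subunit that speeds inactivation of Kv1 channels, stood at 294 CPM in CA1 against 99.5 in the rest of the section labelled trained (404 UMIs, log2 ratio 1.56, interval 1.41 to 1.71) and at 219 against 61.4 in the section labelled untrained (721 UMIs, 1.83, 1.71 to 1.95). Kcnn2, which encodes a small-conductance calcium-activated channel, reached 79.9 CPM against 27.8 and 40.6 against 18.8, with log2 ratios of 1.53 and 1.12. Kcnh7, an ERG channel, reached 76.3 against 30.3 and 47.6 against 18.2, with log2 ratios of 1.34 and 1.39. The M-current subunit Kcnq3 (1.33 and 1.28), the dendritic A-type channel Kcnd2 (1.32 and 1.28), the silent subunit Kcns2 (1.21 and 1.14) and Kcnip2 (1.04 and 1.05) completed the set. Subunits of A-type and M-type channels thus stood side by side among the CA1 genes, and Kcnab1 had the largest ratio in both sections.

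The dentate gyrus, whose granule cells receive the cortical input, was marked by 5 members, beside 3.41% of all genes. Kcng2, a silent Kv subunit, stood at 101 CPM there against 9.19 in the rest of the section labelled trained (134 UMIs, log2 ratio 3.46, interval 3.15 to 3.77) and at 73.1 against 15.8 in the section labelled untrained (289 UMIs, 2.22, 2.02 to 2.41). The intervals of the ratio for Kcng2 do not overlap between sections. Beside this, cluster 16 (led by Cartpt, Vgll3 and Trhr), with 181 spots in the section labelled untrained and 1 in the other, held Kcng2 at 44.3 CPM (168 UMIs) and counts among the rest of that section. The part of cluster 16 in the gap between sections was not tested. Kcng1, the related silent subunit whose filter is shown above, had log2 ratios of 2.12 and 1.73. Kcnip2 reached 371 CPM against 98.3 and 244 against 87.6 (1.92 and 1.48), the rapidly inactivating Kv1 channel Kcna4 had 1.35 and 1.01, and the EAG channel Kcnh1 had 1.06 and 1.09.

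CA3, the recurrent pyramidal field between them, was marked by 4 members, beside 2% of all genes. Kcng2 was again first, at 47.8 CPM against 11.7 and 53.3 against 17.5, with log2 ratios of 2.04 and 1.61. The M-current subunit Kcnq5 stood at 70.9 and 60.8 CPM (log2 ratios 1.29 and 1.61). Kcnip2 had ratios of 1.28 and 1.35, and the silent subunit Kcnv1 of 1.11 and 1.09. Kcnip2 was the only member to mark CA1, CA3 and the dentate gyrus in both sections. No member marked the hippocampal neuropil in either section. That region held 488992 UMIs in the section labelled trained and 575673 in the other. Members at low levels could not reach the UMI minimum for marking there, so their absence from the marking genes is not evidence of absence from the region. The share of all genes that marked the neuropil was not counted.

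The upper neocortex was marked by more members than any other region, 11 of 70, beside 1.89% of all genes. The EAG, ERG and ELK group was the most complete, with 4 of its 5 members there. Kcnh4, an ELK channel, had the largest mean ratio over both sections, with 10.7 CPM against 2.87 in the section labelled trained (36 UMIs, log2 ratio 1.91, interval 1.29 to 2.50) and 11.9 against 1.21 in the other (63 UMIs, 3.30, 2.78 to 3.83), although in the section labelled trained its level was higher still in the striatum. Its relative Kcnh3 stood at 86.1 against 26.0 and 91.7 against 22.5 (1.73 and 2.03), Kcnh7 had 1.73 and 1.98, and Kcnh1 had 1.53 and 1.84. The silent subunits Kcnv1 (2.05 and 2.14) and Kcns1 (1.77 and 2.09) were next to Kcnh4. Kcnq5 had 1.59 and 1.75, the beta subunit Kcnab3 1.29 and 1.61, the mechanosensitive leak channel Kcnk4 1.39 and 1.45, and the inward rectifier Kcnj4 1.21 and 1.41. Ratios were larger in the section labelled untrained for each of these 10 genes.

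Cluster 1, cortical spots led by Trbc2, Myl4, Hs3st2, Fezf2 and Tbr1, was marked by 3 members, beside 1.05% of all genes. The silent subunit Kcns3 had log2 ratios of 1.53 and 1.02, Kcnh7 of 1.10 and 1.41, and Kcnab3 of 1.08 and 1.14. Kcnh7 and Kcnab3 thus marked both cortical regions, and Kcnh7 in addition CA1.

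The thalamus was marked by 6 members, beside 1.83% of all genes. Kcnc2, a Kv3 channel of the class that allows fast firing, stood at 378 CPM against 95.5 in the section labelled trained (730 UMIs, log2 ratio 1.99, interval 1.86 to 2.10) and at 224 against 62.2 in the other (1245 UMIs, 1.85, 1.75 to 1.94). Kcne4, an auxiliary subunit present at low counts (29 and 58 UMIs), had the larger ratios of 2.82 and 2.88. Kcnj10, the inward rectifier through which astrocytes take up potassium, reached 240 against 92.6 and 264 against 116 (1.37 and 1.19). The summed level of 4 astrocyte markers had log2 ratios of -0.09 and -0.29 in the thalamus, and 2 of the 4 were higher there than in the rest in each section. The part of astrocytes in the Kcnj10 value was not tested. The inward rectifier Kcnj12 stood at 15.5 CPM against 5.55 and at 17.1 against 6.10. The small-conductance channel Kcnn3 had log2 ratios of 1.74 and 1.16, and the Kv4-interacting protein Kcnip4 of 1.09 and 1.16.

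Cluster 5, adjoining thalamic spots led by Ctxn3, Gbx2, Cbln1 and Cbln4, was marked by 2 members, beside 1.11% of all genes. Kcnn3 had log2 ratios of 1.42 and 1.13, and Kcnk3, a leak channel closed by acid, of 1.06 and 1.05. The reticular thalamus, a sheet of inhibitory neurons with 115 and 34 spots, was also marked by 2 members, beside 0.472% of all genes. Kcnh2, an ERG channel, stood at 217 CPM against 42.2 and 105 against 34.1, with log2 ratios of 2.37 and 1.64. Kcnip1 had ratios of 2.35 and 1.65. The summed level of 5 markers of GABA neurons moved with them, at log2 ratios of 2.44 and 2.16 in that region. All 8 white matter markers were higher there too, their sum at 0.30 and 1.13, and the sum of 4 astrocyte markers was at 0.00 and 0.63. The part of these cells in the Kcnh2 and Kcnip1 values was not tested. In the section labelled trained alone 9 further members marked the reticular thalamus, and 7 of these had fewer than 20 UMIs there in the other section. Among them Kcns3 had log2 ratios of 2.34 and 2.38 with 24 and 15 UMIs, Kcnc1 of 1.51 and 0.85 with 224 and 61, and Kcns1 of 1.62 and 0.01 with 29 and 5. The region held 911398 UMIs in the section labelled trained and 436829 in the other. The share of all genes that marked it in 1 section alone was not counted.

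The habenula was marked by 3 members, beside 1.5% of all genes. Kcnma1, the large-conductance BK channel opened by voltage and calcium together, stood at 266 CPM against 36.2 in the section labelled trained (105 UMIs, log2 ratio 2.88, interval 2.57 to 3.17) and at 244 against 45.9 in the other (366 UMIs, 2.42, 2.25 to 2.57). Kcnip1 reached 225 against 33.3 and 224 against 24.9 (2.76 and 3.18). Kcnd3, a Kv4 channel, which Kcnip1 can bind, reached 129 against 33.9 and 75.5 against 36.0 (1.94 and 1.07). The silent subunit Kcng4 was highest in the habenula in both sections, with ratios of 3.51 and 3.48, but had 19 UMIs there in the section labelled trained, 1 below the minimum.

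The hypothalamus was marked by 2 members, beside 1.53% of all genes. The leak channel Kcnk9 stood at 54.0 CPM against 15.7 and 47.2 against 16.6, with log2 ratios of 1.78 and 1.51. Kcna5, a Kv1 channel, had ratios of 1.21 and 1.82. Its level was higher in the striatum, at 32.6 CPM (72 UMIs) in the section labelled trained and 16.3 (5 UMIs) in the other. The striatum was marked in both sections by Kcnj4 alone, beside 0.263% of all genes, with 148 CPM against 49.5 and 78.3 against 39.6 (1.58 and 1.01). Only 34 striatal spots lay in the section labelled untrained against 221 in the other, and Kcnj4 had 24 striatal UMIs there. In the section labelled trained alone, 5 further members (Kcna5, Kcnab1, Kcnh4, Kcnip2 and Kcnj2) marked the striatum.

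The regions rich in glia or epithelium had few marking members and low levels of most channels. White matter was marked by Kcnk13 alone, beside 4.92% of all genes. Kcnk13, a tandem-pore leak channel known from microglia, stood at 35.2 CPM against 5.80 in the section labelled trained (55 UMIs, log2 ratio 2.61, interval 2.13 to 3.05) and at 37.3 against 5.32 in the other (99 UMIs, 2.81, 2.47 to 3.14). All 3 microglial markers listed were higher in white matter too, their sum at log2 ratios of 1.20 and 1.17, as were 8 of 8 white matter markers (3.25 and 2.99) and 4 of 4 astrocyte markers (0.77 and 0.88). The part of these cells in the Kcnk13 value was not tested. Cluster 6, mixed subcortical spots led by Spp1, Syt2, Pvalb and Il33, was marked by 2 members, beside 0.736% of all genes. Kcnk13 stood at 18.9 CPM against 6.81 in the section labelled trained and at 14.1 in the other (log2 ratio 1.14), and the auxiliary subunit Kcne1l at 18.9 against 5.11 (25 UMIs) and 15.6 against 6.33 (31 UMIs). All 3 microglial markers were higher in cluster 6 too, their sum at log2 ratios of 1.20 and 0.55, as were all 8 white matter markers, their sum at 15760 CPM against 6646 and at 15075 against 5927. The 6 markers of the reticular thalamus were all higher there as well, their sum at 1.72 and 1.64, and in the section labelled untrained the level of Kcne1l was highest in the reticular thalamus (8 UMIs). The part of these cells in the values of Kcnk13 and Kcne1l was not tested.

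The choroid plexus, which makes cerebrospinal fluid, was marked by Kcne2 alone, beside 3.73% of all genes. Kcne2 stood at 224 CPM there against 2.60 in the rest of the section labelled trained (147 UMIs, log2 ratio 6.42, interval 6.02 to 6.85) and at 272 against 6.82 in the other (1293 UMIs, 5.32, 5.15 to 5.49), the largest ratios of any member in both sections. The level in the rest of the section moved with that of 6 choroid plexus markers, whose sum outside the region was 2301 CPM in the section labelled trained and 4200 in the other. Whether the Kcne2 UMIs outside the region come from this tissue was not tested.

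**Figure D2:**
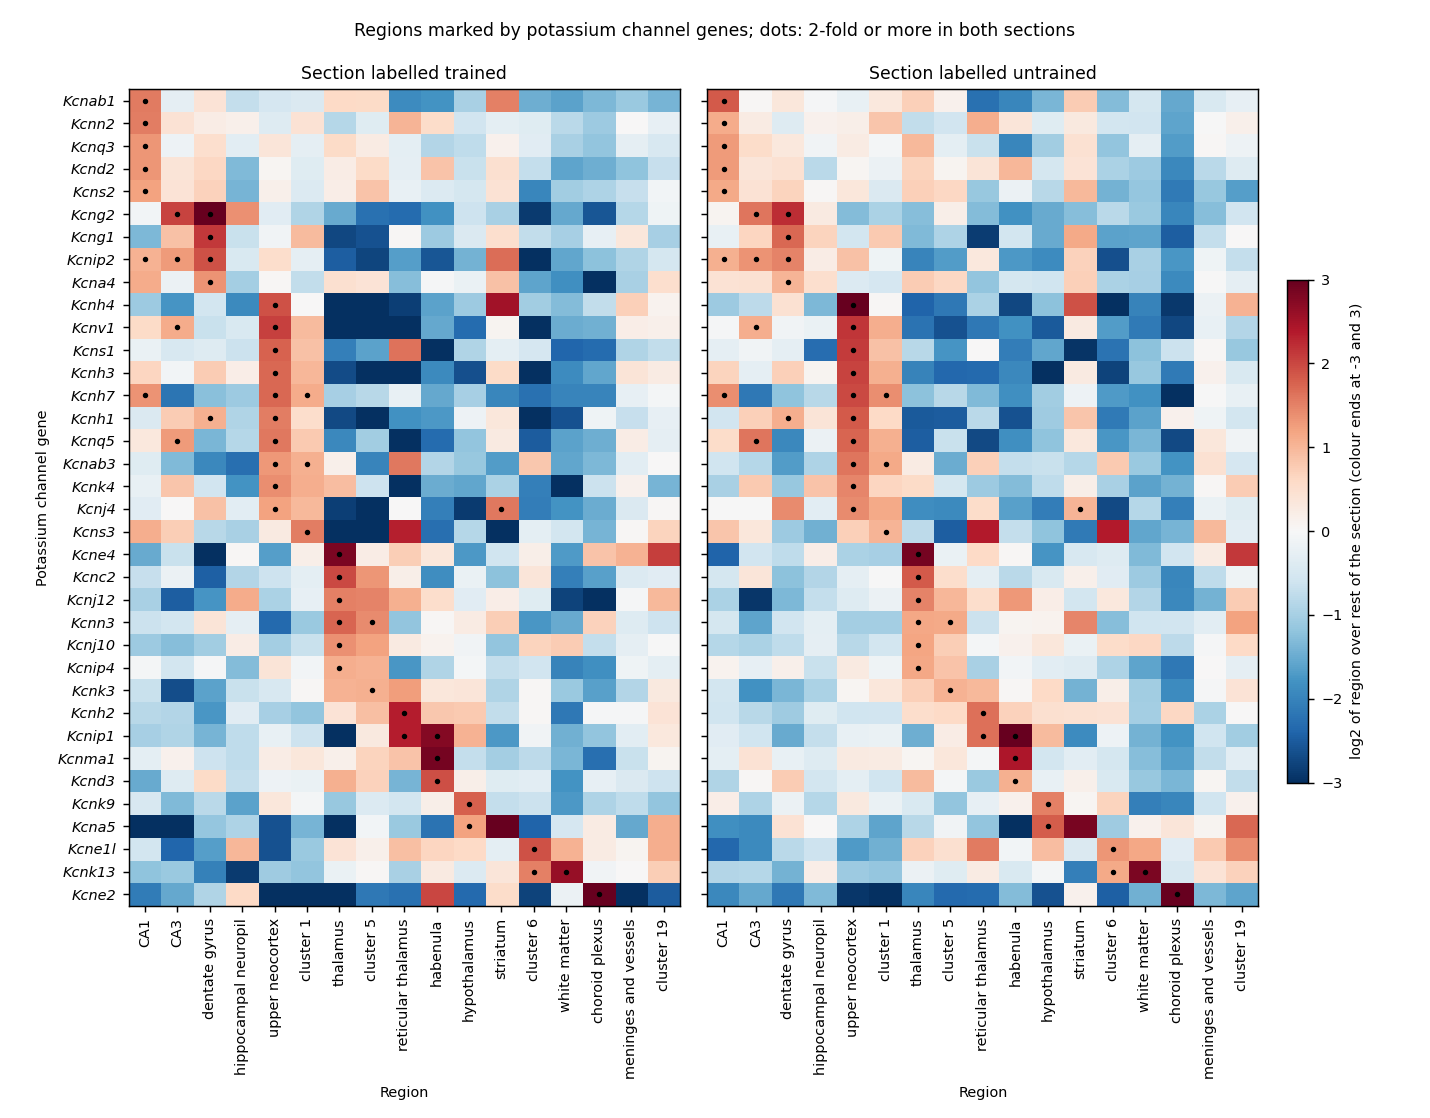
Log2 ratio of CPM in each of 17 regions over the rest of the section for 36 members that marked a region in both sections, with the section labelled trained on the left and the other on the right; colours end at -3 and 3, and dots stand for 2-fold or more in both sections. The blocks for CA1, the upper neocortex and the thalamus appear in both sections, and Kcne2 stands alone in the choroid plexus.

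The median member lay below the median gene in both sections in 14 of 17 regions, CA1, CA3 and the dentate gyrus among them, and above it in 3. The widest gaps below were in white matter, the choroid plexus, the habenula and the hypothalamus. In white matter the median log2 ratio of members was -1.31 in the section labelled trained and -1.01 in the other, beside -0.19 and -0.21 over all genes. In the choroid plexus it was -1.23 and -1.72, beside -0.20 and -0.35. The habenula (-0.56 and -0.49, beside 0.14 and 0.06) and the hypothalamus (-0.50 and -0.47, beside -0.02 and -0.04) were low as well, although each had strong single genes. In CA1 it was -0.35 and -0.20, beside -0.08 and -0.08. The regions above were the thalamus (0.12 and 0.16, beside -0.13 and -0.11), cluster 1 (0.14 and 0.21, beside -0.04 and -0.05) and the upper neocortex (0.25 and 0.24, beside 0.06 and 0.03). In sum over all members, CPM ran from 1252 in white matter to 3268 in the thalamus in the section labelled trained, and from 1278 in the choroid plexus to 3058 in the upper neocortex in the other.

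Agreement between sections was described for each member by Pearson's r of its log2 ratios over the 17 regions, which share a library within each section. The median over members was 0.81, beside 0.64 over all genes. Depth moved with it. For the 44 members with at least 1000 UMIs the median was 0.87, beside 0.70 over all genes with that depth, and for the other 26 it was 0.60, beside 0.50. With spots thinned to 1000 UMIs the median over members was 0.40. The beta subunit Kcnab2 reached 0.95 although it marked no region, since its level was less than 2-fold above the rest in each. Among the deeply counted members the lowest were Kcnn1 (0.40), a small-conductance channel, Kcns1 (0.57) and the glial inward rectifier Kcnj16 (0.65). Over all members the lowest was Kcnj14 with 0.05, at 226 UMIs in all.

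The region with the highest level was the same in both sections for 37 of 70 members, beside 44% of all genes. Members marked 81 gene and region pairs in the section labelled trained and 71 in the other, of which 50 were shared. That is 61.7% of the former and 70.4% of the latter, beside 59.3% and 59.0% over all genes. Over all 1190 pairs the sign was the same in 950, beside 72.7% of such pairs over all genes. Both intervals lay above 0 in 180 pairs, beside 9.47%, and both below in 296, beside 12.8%. Intervals on opposite sides of 0 occurred in 9 pairs, beside 0.394%. Kcns3 in cluster 6 was the largest gap among pairs marked in 1 section, with 6 UMIs and a log2 ratio of -0.29 in the section labelled trained and 63 UMIs and 2.37 in the other.

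**Figure D3:**
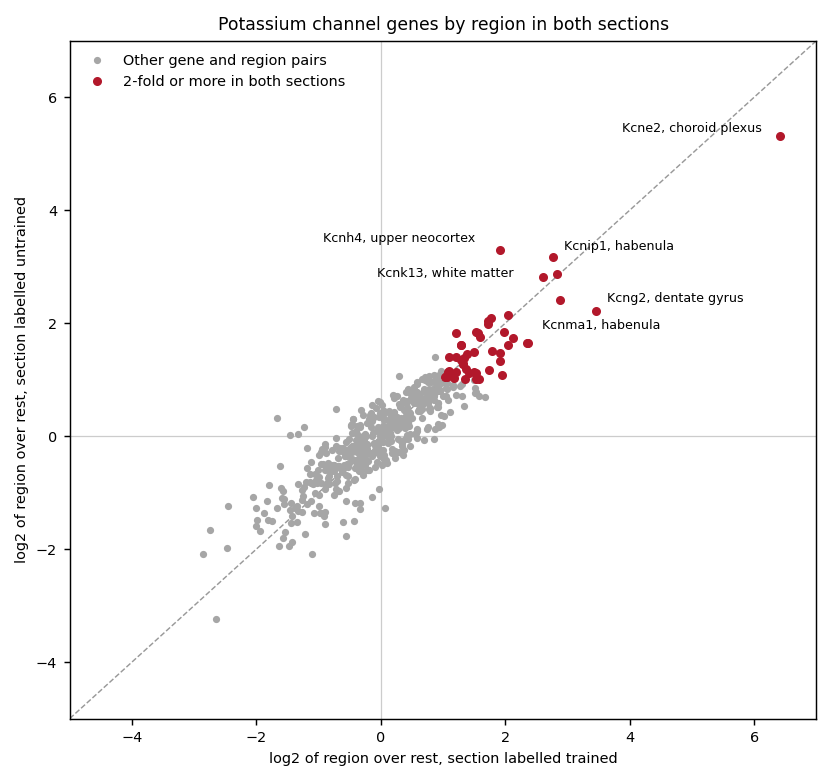
Log2 ratio of region over rest in the section labelled trained (horizontal) against the section labelled untrained (vertical) for the 531 gene and region pairs with at least 20 UMIs in both; red points are the 50 pairs at 2-fold or more in both, and the dashed line is equality. Kcne2 in the choroid plexus lies farthest out, and Kcnh4 in the upper neocortex lies farther from the line than its neighbours.

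By family, the EAG, ERG and ELK channels marked regions in both sections in 5 of 5 members, with a median r of 0.88, where 22.1% of all genes did so and the median r of all genes was 0.64. Families hold few members each. KCNE subunits did so in 3 of 3 (0.83), silent Kv subunits in 6 of 8 (0.77), Kv7 in 3 of 4 (0.87), Kv4-interacting proteins in 3 of 4 (0.90) and Kv4 in 2 of 3 (0.82). Kv1 channels did so in 2 of 5 (0.82), Kv3 in 1 of 4 (0.79), Kv beta in 2 of 3 (0.90), small-conductance channels in 2 of 3 (0.69), tandem-pore channels in 4 of 8 (0.66) and inward rectifiers in 3 of 10 (0.79). The single BK channel did so with an r of 0.95. Neither Kv2 channel (0.60), neither sodium-activated channel (0.81), neither BK auxiliary subunit (0.55), neither noncoding RNA (0.47) and not the Slo3 channel Kcnu1 (0.22) marked the same region in both sections.

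In neither section did 15 members mark a region, among them Kcna2, Kcna6, Kcnab2, Kcnc4, Kcnd1, Kcnj11, Kcnj16, Kcnk10, Kcnk12, Kcnk2, Kcnmb4, Kcnq1ot1, Kcnt1 and Kcnu1. Several were abundant and only moderately uneven. Kcna2, a Kv1 channel of axons, was highest in the thalamus, at 111 CPM against 68.3 and 101 against 57.2 (0.70 and 0.82). Kcnc4, a Kv3 channel, was highest in the dentate gyrus (0.96 and 0.94), Kcnj16 in the hypothalamus (0.96 and 0.81), and Kcnk2, a mechanosensitive leak channel, in the striatum (0.95 and 1.04, with 15 UMIs there in the section labelled untrained).

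A further 18 members marked a region in 1 section, or different regions, and none in both, among them Kcna1, Kcnb2, Kcnc1, Kcnf1, Kcng4, Kcnip3, Kcnj14, Kcnj2, Kcnj3, Kcnj8, Kcnj9, Kcnk1, Kcnmb2, Kcnmb4os2, Kcnn1 and Kcnt2. Some of them lay on either side of the 2-fold line or the 20 UMI minimum with like ratios. Kcnb2, a Kv2 delayed rectifier, had 0.71 and 1.05 in the upper neocortex, Kcnj9, a channel opened by G proteins, had 1.15 and 0.90 in the thalamus, and Kcna1 had 2.00 and 1.91 in white matter with 13 and 22 UMIs. Kcnmb2, a BK auxiliary subunit, had 2.63 and 2.36 in the reticular thalamus with 24 and 8 UMIs. Others differed more. Kcnj3, the partner of Kcnj9 in channels opened by G proteins, had 1.54 and 0.78 in the dentate gyrus, Kcnk1 had 1.31 and 0.71 there, and the calcium-binding protein Kcnip3 had 0.30 and 1.06 in the thalamus.

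Within the hippocampus, the CA1, CA3, dentate gyrus and neuropil regions, called layers below, were compared in pairs. Most members with at least 50 UMIs over the layers compared in each section had the same direction in both. Between CA1 and the dentate gyrus 33 of 38 members had the same sign, beside 77.3% of all genes with that count. Both intervals lay above 0 for 11 members, beside 10.8%, and below for 11, beside 15.2%. Kcnh7 stood at 76.3 CPM in CA1 against 13.6 in the dentate gyrus of the section labelled trained and at 47.6 against 8.85 in the other (log2 ratios 2.46 and 2.41). Kcnq5 (1.62 and 2.37) and Kcnn2 (1.19 and 1.39) were also higher in CA1. On the side of the dentate gyrus, Kcng2 stood at 12.4 CPM in CA1 against 101 and at 20.6 against 73.1 (intervals of the log2 ratio -3.85 to -2.30 and -2.23 to -1.44), Kcnc4 had -2.54 and -2.09, and Kcnd3 had -2.02 and -1.56. Kcnd2 and Kcnd3, which both give A-type current, were thus placed differently, Kcnd2 marking CA1 and Kcnd3 lying lower in CA1 than in the dentate gyrus.

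Between CA1 and CA3 the sign was the same for 32 of 36 members, beside 71.1% of all genes, with both intervals above 0 for 11, beside 7.9%, and below for 8, beside 11.3%. Kcnh7 showed the widest gap of all layer comparisons, 76.3 CPM in CA1 against 6.94 in CA3 and 47.6 against 4.59 (3.39 and 3.33). Kcnab1 had 1.69 and 1.61. In the other direction Kcng2 had -1.92 and -1.36, the BK auxiliary subunit Kcnmb4 had 50.1 CPM in CA1 against 139 in CA3 and 50.3 against 138 (-1.46 and -1.45), and the silent subunit Kcnf1 had -1.76 and -0.75. On the low side of the median array column, the Kcnf1 value in the section labelled untrained was 0.01. Kcnmb4 overlaps Kcnmb4os1 and Kcnmb4os2 on the opposite strand, and their part in its value was not tested. Between CA3 and the dentate gyrus 35 of 37 members had the same sign, beside 78.5% of all genes. Both intervals lay above 0 for 9 of them, beside 14.1%, and below for 14, beside 15.7%. Kcnq5 stood at 70.9 CPM in CA3 against 12.1 and 60.8 against 6.07 (2.52 and 3.30), Kcnc2 had 2.24 and 1.52, and Kcnv1 1.68 and 1.09. Kcnc4 (-1.95 and -2.17), Kcnj9 (-1.72 and -1.34) and Kcnk1 (-1.31 and -0.79) were lower in CA3.

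Between CA1 and the hippocampal neuropil, where dendrites and glia lie, 27 of 29 members had the same sign, beside 80.3% of all genes. Both intervals lay above 0 for 12, beside 20.7%, and below for 1, beside 6.14%. Part of the CA1 region also scored high for neuropil markers, so the comparison does not set cell bodies alone against dendrites. Kcnd2 stood at 218 CPM in CA1 against 36.8 and 180 against 45.2 (2.53 and 1.97), Kcnh7 had 2.32 and 2.08, and Kcnab1 2.14 and 1.67. Kcnj10 was the member with both intervals below 0, at 48.7 CPM in CA1 against 119 and 73.7 against 108 (-1.29 and -0.56). The summed astrocyte markers were higher in the neuropil region than in the rest of each section, at log2 ratios of 1.14 and 0.97, and their part in the Kcnj10 value was not tested. Kcna6 (-0.70 and -0.79) and Kcnip3 (-0.27 and -0.82) had intervals that reached 0 in the section labelled trained. With spots below the hippocampus left out of the neuropil, an alternative chosen after seeing the data, Kcnd2 had 2.48 and 2.13 and Kcnj10 -1.43 and -0.58.

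**Figure D4:**
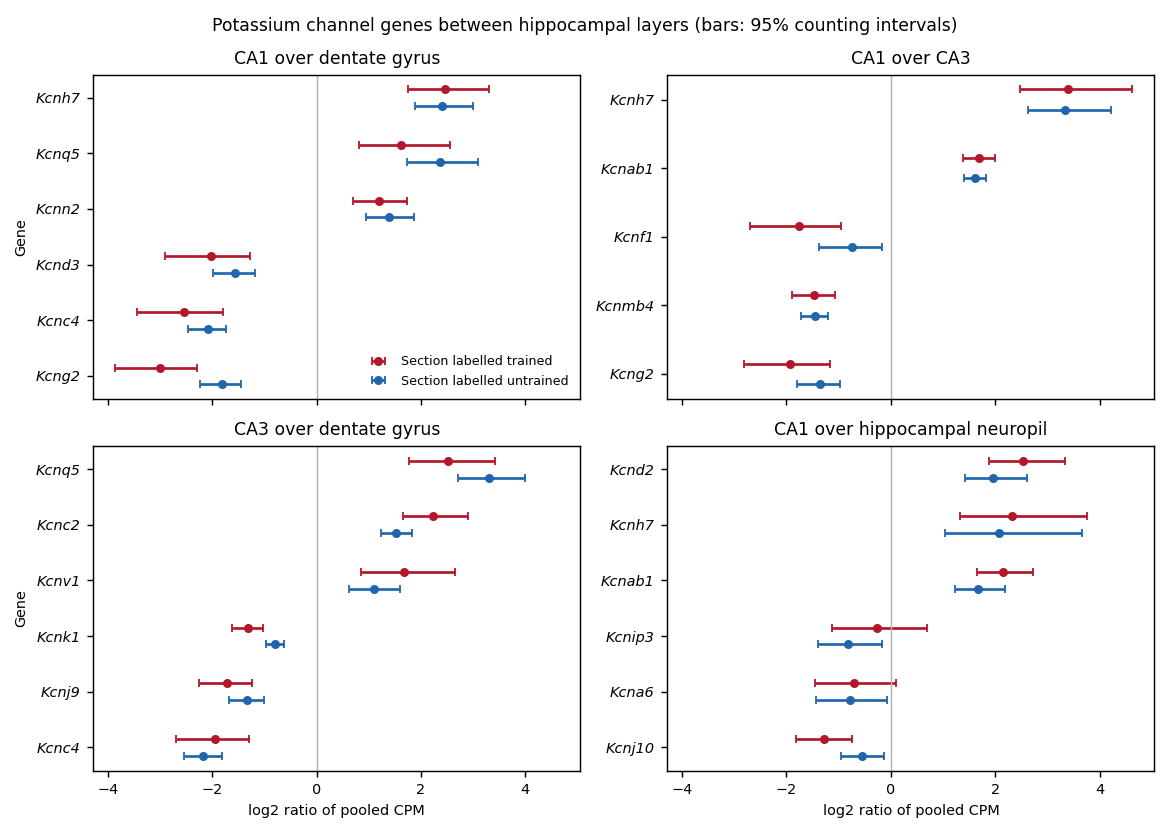
Log2 ratio of CPM between hippocampal layers for up to 3 members farthest from 0 in each direction of 4 layer comparisons, with 95% counting intervals as bars, the section labelled trained in red and the other in blue. The genes were picked among those with the same sign in both sections, so their shared side of 0 is not a result. Kcnh7 lies on the CA1 side in 3 of the 4 panels.

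Regional profiles were then compared for subunits known to assemble or closely related. For 35 listed pairs with both genes among the members, the median r over regions was 0.32 in the section labelled trained and 0.44 in the other. Over all 2415 pairs of members it was 0.12 and 0.17, and 21 listed pairs lay above the latter medians in both sections. How many of all pairs lay above both medians was not counted. The highest were Kcnh3 with Kcnh4 (0.72 and 0.76) and Kcnc1 with Kcnc2 (0.75 and 0.72). The BK channel Kcnma1 and its subunit Kcnmb4 had 0.50 and 0.69, and Kcnd2 with Kcnip4 had 0.52 and 0.68. The r was below 0 in both sections for 5 pairs. These were Kcnd3 with Kcnip2 (-0.27 and -0.02), Kcna1 with Kcna2 (-0.19 and -0.05), Kcna2 with Kcnab1 (-0.09 and -0.02), Kcnn2 with Kcnn3 (-0.27 and -0.15) and Kcnh2 with Kcnh7 (-0.01 and -0.34). Across the 946 pairs of members with at least 1000 UMIs, Kcnh3 and Kcnv1 were most alike (0.94 and 0.91) and Kcnh1 and Kcnj10 least (-0.88 and -0.81). These values are descriptions over 17 regions of the same libraries.

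Between the labels, 41 members with at least 200 UMIs in the hippocampal regions could be set side by side, over 655 spots and 4488220 UMIs against 623 spots and 11314900 UMIs, and the other 29 were not compared. At 1.5-fold or more, 4 members were higher in the section labelled trained, beside 8.58% of 8301 genes, and 2 were lower, beside 4.32%. These are near the background shares. The spots compared include the 62 and 70 neuropil spots below the hippocampus. More members passed 1.5-fold without them, as given at the end, where shares of all genes were not counted. The balance moved with the scaling. With mitochondrial genes left out of the totals 4 members were higher, beside 5.98% of all genes, and 4 lower, beside 6.25%, and with the mean of CPM over spots 3 were higher, beside 5.91%, and 4 lower, beside 5.94%. The median log2 ratio of members was 0.10, beside 0.07 over all genes, whose ratios had an SD of 0.41, and under these scalings it was 0.03 and -0.02, beside -0.0039 and -0.0104. Of the 41 members 25 lay above 0, beside 57.7% of all genes, and 16 below. Intervals excluded 0 on the upper side for 13 members, beside 32.2%, and on the lower side for 8, beside 19.3%, again near the background.

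Kcnn2 had the largest ratio, 49.9 CPM in the hippocampus of the section labelled trained against 25.5 in the other (0.97, interval 0.71 to 1.22), with 0.51 over the spots outside the hippocampus. Kcnj3 stood at 181 against 96.6 (0.90, 0.77 to 1.04), with 0.60 outside. Kcnh7 had 0.71 (0.39 to 1.03), with 0.71 outside, and Kcnt2, a sodium-activated channel, had 0.58 (0.15 to 0.99), with 1.03 outside. The higher level in the section labelled trained was therefore seen away from the hippocampus too for each of these 4 genes.

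Among the members lower in the section labelled trained, Kcnma1 stood at 32.1 against 50.3 (-0.64, -0.92 to -0.38), with -0.33 outside. Kcnk9 had -0.57 (-1.05 to -0.13) but 0.13 outside, Kcnc4 had -0.54 (-0.81 to -0.28) with -0.55 outside, and Kcnd3 had -0.45 (-0.75 to -0.17) with 0.00 outside. The ratios of Kcnk9 and Kcnd3 inside and outside the hippocampus were not tested against each other, and no member had intervals on opposite sides of 0 inside and outside it. Of the 41 members 33 had the same sign in both areas, beside 83.4% of all genes. The widest gap was that of Kcng2, with 0.06 in the hippocampus and -0.94 outside, where the ratio was -0.59 without cluster 16.

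**Figure D5:**
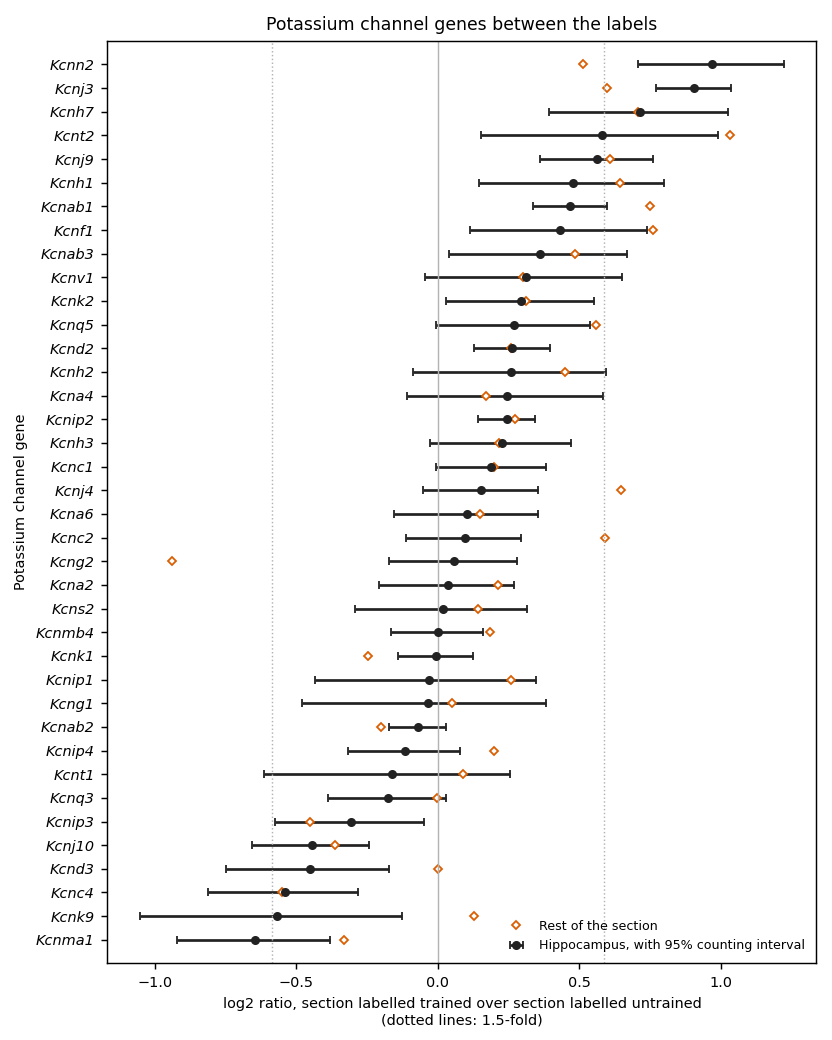
Log2 ratio of CPM between the sections (label trained over label untrained) for 38 of the 41 members, in the hippocampus (filled, with 95% counting intervals) and in the rest of the section (open diamonds); dotted lines are 1.5-fold. Kcnn2, Kcnj3 and Kcnh7 lie past the upper line and Kcnma1 past the lower, and most diamonds lie on the same side of 0 as the filled points.

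Counting could mix some members with other genes. Kcnk4 overlaps Catsperz and Kcnip1 overlaps 4930469K13Rik on the same strand, and among all genes of the count matrices 4 members overlap another gene on the same strand and 27 on the opposite strand. Among the latter are Kcnmb4 with the noncoding Kcnmb4os2, Kcnq1ot1 with Kcnq1, Kcnh7 with Gca, Kcnh3 with Mcrs1 and Kcnip1 with Kcnmb1. Whether counting used the strand is not given in the sources used here, so values of these members are uncertain.

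Of 15 other genes listed for the same currents, all had at least 200 UMIs and 7 marked a region in both sections, beside 22.1% of all genes. The pacemaker channel Hcn3 marked the hypothalamus, and Hcn4 the thalamus and cluster 5 like Kcnn3. Abcc8, the regulatory subunit that assembles with inward rectifiers, was highest in the dentate gyrus (1.27 and 1.12). Lgi1, a secreted protein linked to Kv1 channels, marked CA3 and the dentate gyrus, with 1.71 and 1.43 in the latter, and Cntnap2, which gathers Kv1 channels at axons, the habenula (1.09 and 1.23). Lrrc55, a BK auxiliary protein, marked the habenula too but is among the genes that named it. Hcn2, Dpp6, Dpp10, Abcc9, Amigo1, Adam22, Adam23 and Nalcn marked no region in both.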

How the data were processed

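Sections were prepared and sequenced with 10x Visium. Per the labels and methods, the authors counted UMIs with Space Ranger 2.0.0 against mm10, and deposited UMI counts per gene and spot, without normalization, with spot positions and a table of Moran's I, a score of spatial autocorrelation per gene; the table's other columns were not used. Groups follow the sample labels, with 1 section each, so no test was run.

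Spots with at least 500 UMIs were scaled to 10000 UMIs, logged and clustered jointly (scanpy 1.11.5, leidenalg 0.10.2) on 941 genes variable in both sections, without Kcn genes, with 30 principal components, 15 neighbours and resolution 1.5; no batch correction was made. UMIs of a region's spots were pooled and given as CPM, with 0.5 UMI added for log2 ratios, and exact conditional binomial intervals (scipy 1.17.1) cover counting error only, as PCR and capture can add more. Counts of markings were made at 2-fold and 20 UMIs, and label ratios at 1.5-fold and 200 hippocampal UMIs. The ratio calculation was tested on simulated data for 3000 genes, where all changed genes with at least 1000 UMIs were recovered (100%). Intervals held the true value in 96.6% of the simulated cases. The simulation checks the calculation only. It does not show how often changes near the 2-fold limit are found, or how the intervals cover real counts. Sequences were read from the GRCm38 genome with its gene annotation.

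Members and lists were chosen with earlier results of these data known. Named were the 3 members with the highest mean log2 ratio in each region that members marked. All others that marked a region in both sections were named too. For each layer comparison the 3 farthest each way were taken among members with the same sign in both sections. The 5 highest and lowest label ratios and the members around the minimum were also named. Other members were added in the text after their values were seen. Alternatives were clustering resolution, thinning to 1000 UMIs per spot, spot and fold minimums, interior spots, sides of the section and hippocampal area. Cluster 16 and the deep neocortex, with under 30 spots in a section, were not compared. Filter windows on chromosome 18 and those interrupted by an intron were not printed. Some genes and a sequence that the rules for named members and windows would include are not reported here, and remain in the counts.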

Additional observations from a re-analysis of the deposited data

Results flagged for a closer look

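In 9 gene and region pairs the counting intervals of the log2 ratio of region over rest lay on opposite sides of 0 in the sections, and with 1 section each none of these differences was tested. Kcne2 in the habenula was 2.00 in the section labelled trained and -1.29 in the other. The summed level of 6 choroid plexus markers moved with it there, at log2 ratios of 1.67 and -1.30, with 6 of 6 and 0 of 6 markers higher, and its part was not tested. In cluster 6, Kcnc2 was 0.36 and -0.34, Kcnc4 was -0.72 and 0.47, and Kcnk9 was -0.64 and 0.67. In cluster 5, Kcna6 was -0.23 and 0.23, and Kcnf1 was 0.37 and -0.25. In the hypothalamus, Kcnc1 was -0.19 and 0.30, and Kcng4 was -1.04 and 0.47. Kcnab1 in cluster 1 was -0.44 and 0.31. All other pairs had intervals that overlapped 0 or lay on the same side.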

How the results depend on the processing

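No paired analysis was possible because each group holds 1 section. Counted anew over all 70 members at each setting, 12 in place of 37 marked a region in both sections after thinning to 1000 UMIs per spot, 23 on the high side of the median array column (12 regions), 59 at 1.5-fold and 15 at 3-fold. The leading region was shared by 21 in place of 37 members after thinning. The median r of 0.81 became 0.75 at resolution 2.0, 0.40 after thinning, 0.70 on the low side of the median array column and 0.87 for members with at least 1000 UMIs. The 6 members past 1.5-fold between labels became 2 of 21 on the low column side, 10 of 53 at a minimum of 100 hippocampal UMIs, 12 outside the hippocampus, 16 at a fold below 1.5 and 0 at 2-fold, where no p-value exists with 1 section per group. Of 32 named gene and region pairs 17 of 19 that could be formed held in interior spots and 20 of 25 on the high column side. Reversed values were Kcnf1, CA1 over CA3, section labelled untrained (0.0098 on the low column side), Kcnk9 between labels (0.13 outside the hippocampus and 0.068 over all spots) and Kcnd3 between labels (0.0004 outside). Where a setting keeps fewer UMIs, spots or regions the counts behind each value fall; other causes were not tested. Without the spots below the hippocampus, or with the neuropil left out, both chosen after seeing the data, 9 members passed 1.5-fold and the median label ratio was 0.11 and 0.12. In all, 69 of 85 summary values, 530 of 622 region ratios, 366 of 384 layer ratios and 103 of 120 label ratios were classed as unchanged. For counts this meant within 1.5-fold of the main count. For medians and ratios it meant within the interval of the main value. Depth limits the members with few UMIs, whose patterns agreed less between sections.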
